A study of Mus musculus with 3 samples.

Results

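Par-4 ChIP-Seq peaks at the protein-coding genes Lyz2, Lyz1, Cpsf6, Cpm and Slc35e3, which lie on the same stretch of chromosome 10 as Mdm2, were examined in 3T3-L1 cells. The peaks were chosen by their position, as all chromosome 10 peaks whose nearest transcription start site (TSS) in the HOMER annotation belonged to 1 of the 5 genes. Nearest TSS and nearest gene are used in that sense, and RefSeq can place a further gene closer to a peak. There were 15 such peaks of 373 in all. The counts per gene are therefore a description of where peaks lay, and no test was run on them. 3T3-L1 is a mouse preadipocyte line, and the cells were undifferentiated, untreated, grown to about 80% confluency and fixed with formaldehyde. The chromatin was pulled down with an antibody against the N-terminal part of Par-4, and 3 samples of this single condition were labelled as replicates. The labels do not say whether they came from separate cultures, and neither a control antibody nor an input library was analysed here. The peaks were called by the authors separately for each sample and were annotated on the mm10 build. Replicate 1 had 213 peaks, replicate 2 had 55 and the list labelled replicate 3 had 105. The header of the last list names sequencing reads that were not assigned to a library, so its cells of origin are uncertain. The header of the second list names a library numbered 3. Values are therefore given for each list on its own. Peak lists do not measure RNA, so the labelled cell type could not be checked against marker genes.

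Par-4, the product of Pawr, is a pro-apoptotic protein that can enter the nucleus and act as a transcriptional co-regulator through partner factors such as WT1. Peaks of a co-regulator near a TSS are usually read against the gene that starts there, whereas peaks between genes or deep inside a gene cannot be tied to a gene by position alone. The 5 genes have unrelated functions, apart from Lyz1 and Lyz2. Lyz1 and Lyz2 encode lysozymes, enzymes that cut the peptidoglycan of bacterial walls. Lyz2 is best known from macrophages and other myeloid cells, and Lyz1 from the Paneth cells of the intestine. Cpm encodes carboxypeptidase M, a membrane-anchored enzyme that removes a terminal arginine or lysine from peptides, a group of substrates that includes complement anaphylatoxins. Cpsf6 encodes a subunit of cleavage factor I, which takes part in the choice of polyadenylation sites. Slc35e3 belongs to the SLC35 family, which is known for nucleotide sugar transport. The landmark Mdm2 encodes the ubiquitin ligase of p53, and Nup107 encodes a nuclear pore subunit.

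The members ran from 117281230 to 117763197 on chromosome 10, a stretch of 482 kb. RefSeq places 17 genes on this stretch, 7 of them protein-coding, which are the 5 genes, Mdm2 and Nup107. Lyz2 (117277541 to 117282272) and Lyz1 (117287795 to 117292868) stand next to each other at its lower end, and Cpsf6 follows from 117344667 to 117376998. Cpm (117629500 to 117687352) and Mdm2 face each other with their 3′ ends, 1522 bp apart, and Slc35e3 (117733678 to 117746358) lies on the other side of Mdm2. Cpm is on the plus strand and the other 4 genes are on the minus strand. Measured between TSSs, Slc35e3 and Cpm were 35.6 and 81.3 kb from Mdm2, while Cpsf6, Lyz1 and Lyz2 were 334, 418 and 428 kb away. The term "beside Mdm2" therefore describes Slc35e3 and Cpm closely, and the other 3 genes only in the sense of the same stretch.

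Replicate 1 held 13 of the 15 peaks, the list labelled replicate 3 held 2 and replicate 2 held 0. These were 6.10% of the peaks of replicate 1 (exact binomial 95% confidence interval 3.29% to 10.2%) and 1.90% of those of the list labelled replicate 3 (0.232% to 6.71%). The 0 of 55 peaks of replicate 2 had an interval of 0% to 6.49%. The intervals treat peaks as independent, which neighbouring peaks are not, so they are probably too narrow. The genes were also chosen by where peaks lay. The shares thus follow in part from that choice, and the intervals do not measure a sampling uncertainty. No comparison between the lists is drawn from them. Replicate 1 had 28 peaks on the whole stretch, of which the other 15 had Gm32141 (10 peaks) or Mdm2 (5 peaks) as nearest gene. Its neighbouring peaks there were a median of 12.6 kb apart, and the widest gap, 87.7 kb, ran from the peak in Lyz1 to the peak at Cpsf6. Replicate 2 had 2 peaks on the stretch, nearest to Gm32141 and Mdm2. Lyz2, Lyz1, Cpsf6 and Slc35e3 thus had peaks in replicate 1 only, and Cpm was the only 1 of the 5 genes that also had peaks in the list labelled replicate 3.

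**Figure D1:**
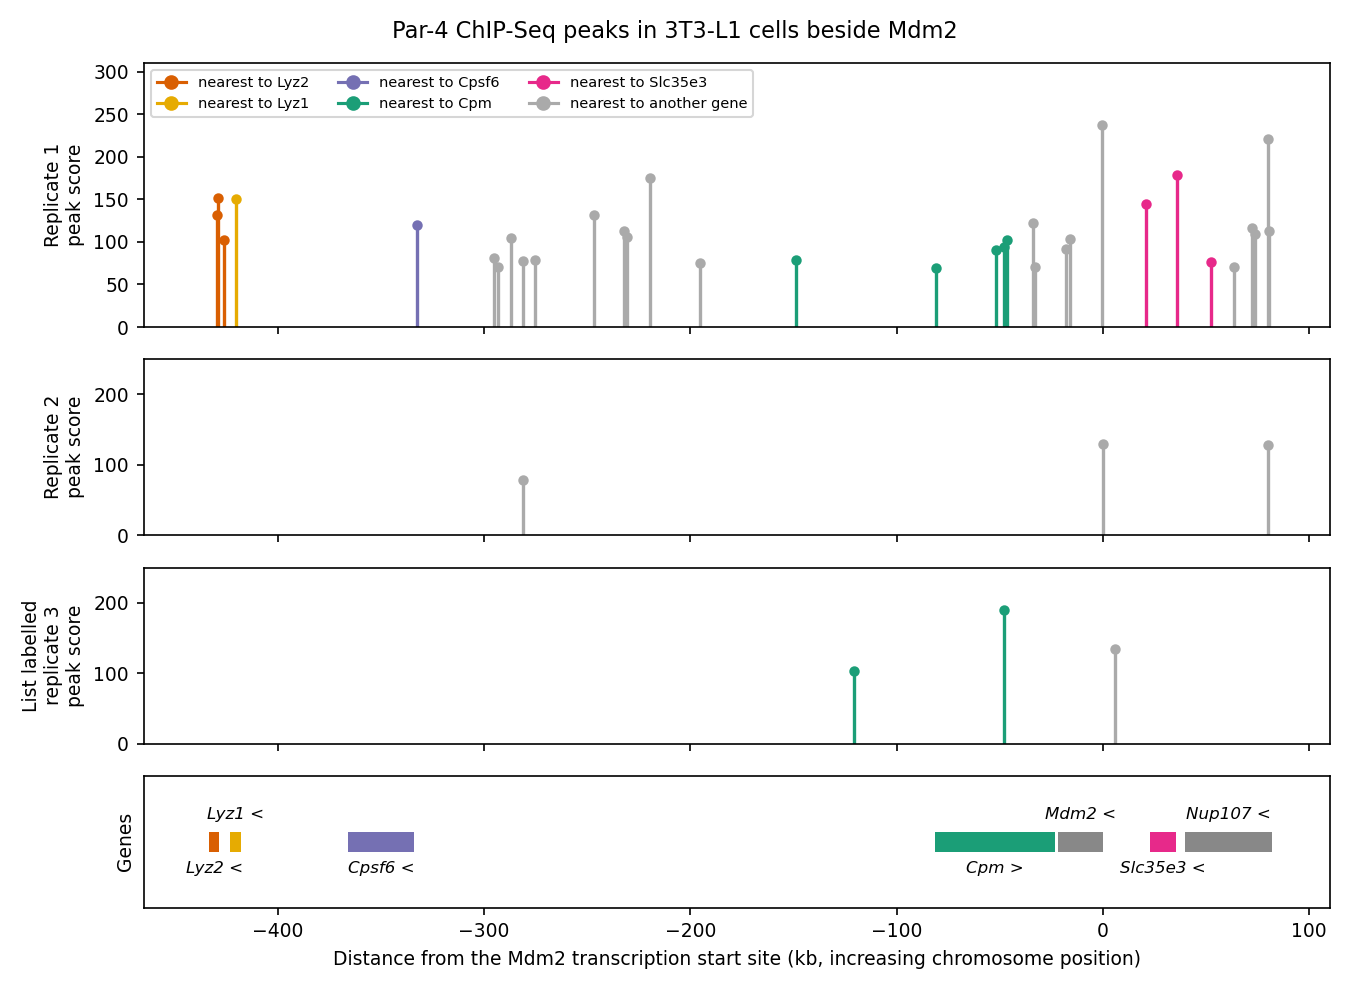
Peak scores (vertical axis) of the 3 lists along the chromosome, drawn as distance in kb from the Mdm2 TSS, with the genes below and their strand as < or >. Coloured stems are the 15 peaks of the 5 genes and grey stems are peaks nearest to another gene; 13 coloured stems belong to replicate 1 and 2 to the list labelled replicate 3, while replicate 2 has none.

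The score of a peak comes from MACS2, the peak caller, and is −log10 of its p-value or its q-value multiplied by 10. It ranks peaks within 1 list and is not comparable between lists. The 13 peaks of replicate 1 had a median score of 102, and all 213 peaks of that list had a median of 110. Their scores ran from 69 to 179, with ranks between 59 and 198 of 213. Of the 13, 6 were at or above the list median. Their lengths ran from 148 to 318 bp.

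Slc35e3 had the highest-scoring of these 13 peaks. It ran from 117746352 to 117746610, scored 179 (rank 59 of 213) and was centred 123 bp upstream of the TSS. HOMER labelled it promoter-TSS of NM_029875, and it was the only 1 of the 15 peaks with that label. The 250 bases before the RefSeq start of Slc35e3 lie wholly inside this peak and are shown for that reason. They are printed 5′ to 3′ on the minus strand of GRCm38.p6, chr10:117746359-117746608, with capitals for the letters GGGCGG or their reverse complement, the core of a GC box.
Slc35e3: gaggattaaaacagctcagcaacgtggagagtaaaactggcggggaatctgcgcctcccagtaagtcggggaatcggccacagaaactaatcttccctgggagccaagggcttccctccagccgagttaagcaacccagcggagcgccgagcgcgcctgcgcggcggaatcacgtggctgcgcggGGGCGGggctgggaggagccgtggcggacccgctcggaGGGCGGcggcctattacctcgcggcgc
Of these bases 66.4% were G or C, against a median of 52.4% over the same window of 32851 RefSeq promoters. The window held 27 CpG dinucleotides, against a median of 6, and 2 matches to GGGCGG on either strand, letters that 32.7% of all promoters hold.

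The other 2 peaks of Slc35e3 were given to it by the nearest TSS and lay outside the gene. The first, from 117731345 to 117731559, scored 144 (rank 79) and lay between genes in a B3 SINE repeat, 2118 bp past the 3′ end of Slc35e3 and 14906 bp from the TSS. The second, from 117763043 to 117763197, scored 76 (rank 171) and lay in a B4A SINE repeat within intron 21 of the 27 introns of Nup107. Its centre was 16.8 kb from the TSS of Slc35e3 and 29.6 kb from that of Nup107, so its assignment to Slc35e3 follows from distance alone. The 3 peaks of this gene therefore fell into 3 kinds of position, at the promoter, behind the gene and inside a neighbour.

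Lyz2 had 3 peaks, all in replicate 1. The highest ran from 117281895 to 117282176, scored 152 (rank 74) and was centred 237 bp downstream of the TSS. The next ran from 117281230 to 117281402, scored 132 (rank 85) and was centred 956 bp downstream. Both were annotated as intron 1 of 3 of NM_017372, and 0.492 kb lay between them, the smallest gap between neighbouring peaks of replicate 1 on the stretch. The third, from 117284689 to 117284973, scored 102 (rank 119) and was centred 2559 bp upstream of the TSS, between Lyz2 and Lyz1, in an RMER1B repeat. Lyz2 was the only 1 of the 5 genes with more than 1 peak within 1000 bp of its TSS.

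Lyz1, the paralog 5.52 kb upstream of Lyz2, had 1 peak. It ran from 117290529 to 117290676, scored 150 (rank 76) and lay in a B4 SINE repeat within intron 2 of 3 of NM_013590, 2266 bp downstream of the TSS. The region at its own TSS held no peak in any list. The 2 lysozyme genes start with closely similar DNA, which bears on reads of 50 bp that are placed by sequence. The 250 bases before each start are printed 5′ to 3′ on the minus strand (GRCm38.p6, chr10:117282273-117282522 for Lyz2 and chr10:117292869-117293118 for Lyz1), with capitals for the longest run of bases that they share.
Lyz2: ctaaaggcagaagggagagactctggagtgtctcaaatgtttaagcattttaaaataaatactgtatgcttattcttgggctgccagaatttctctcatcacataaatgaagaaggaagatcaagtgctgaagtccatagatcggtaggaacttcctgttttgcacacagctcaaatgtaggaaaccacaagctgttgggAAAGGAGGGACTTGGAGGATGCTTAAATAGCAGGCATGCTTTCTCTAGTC
Lyz1: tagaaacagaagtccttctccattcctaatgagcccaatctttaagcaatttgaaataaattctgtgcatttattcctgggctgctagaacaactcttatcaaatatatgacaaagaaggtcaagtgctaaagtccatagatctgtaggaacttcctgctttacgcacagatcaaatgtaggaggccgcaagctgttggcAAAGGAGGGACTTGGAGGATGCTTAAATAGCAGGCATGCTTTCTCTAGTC
The shared run covers the 50 bases next to the start and goes on into the gene for a total of 86 identical bases. Over the 300-base windows, which include 50 bases of each gene, 249 of 298 aligned bases were identical (83.6%). Of the 251 stretches of 50 bases in the Lyz2 window, 37 occur unchanged in that of Lyz1, so a single read of that length from them could not be placed by sequence. The nearest Lyz2 peak begins 96 bp inside the gene from this window, where no sequence was read here, and whether shared sequence affected the peaks of Lyz1 or Lyz2 was not tested. Both windows were poor in CpG dinucleotides, with 1 in Lyz2 and 2 in Lyz1.

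**Figure D2:**
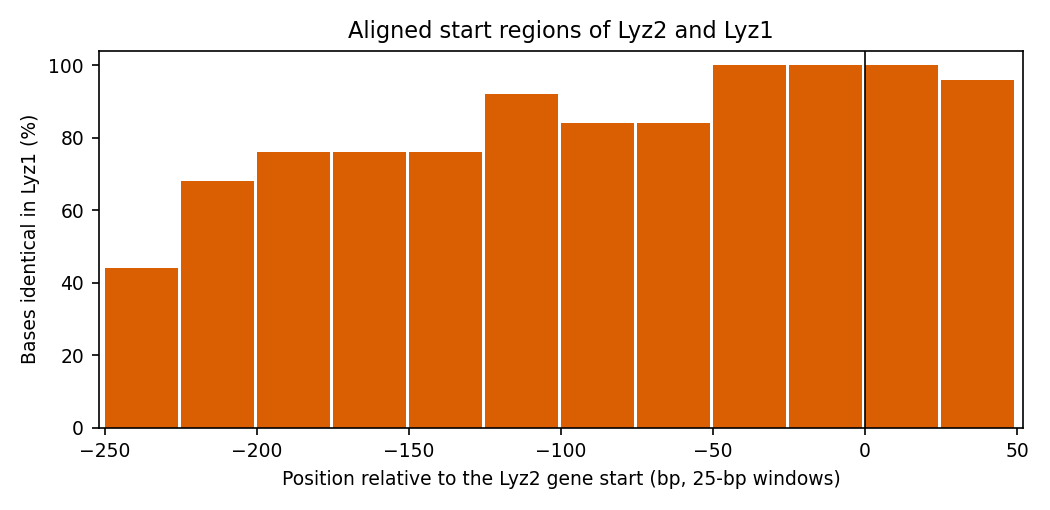
Percentage of Lyz2 bases that are identical in the aligned Lyz1 window (vertical axis) in 25-bp windows around the Lyz2 gene start (horizontal axis, bp). Identity was 100% in the 3 windows from 50 bp before to 25 bp after the start, and 44% in the window farthest upstream.

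Cpsf6 had 1 peak, in replicate 1. It ran from 117378334 to 117378544, scored 120 (rank 94 of 213) and was centred 1466 bp upstream of the TSS, in DNA that HOMER annotated as between genes and outside any repeat. It missed the limit of 1000 bp used here for promoter-near peaks. The 250 bases before the gene start held 23 CpG dinucleotides and no part of the peak, which lay 1110 bp farther upstream.

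Cpm had 7 peaks, of which replicate 1 held 5 and the list labelled replicate 3 held 2. Of the 5 in replicate 1, 1 was near the TSS. It ran from 117629642 to 117629803, was annotated to the 5′ UTR in exon 2 of 9 of NM_027468 and was centred 222 bp downstream of the TSS. Its score of 69 (rank 198 of 213) was the lowest of the 13 peaks of replicate 1. Another peak of replicate 1, from 117561786 to 117562103, scored 79 (rank 161) and lay 67556 bp upstream in an MTD repeat of the LTR class, the farthest of the 15 from its TSS. RefSeq places the long non-coding RNA gene Gm32235 (117559133 to 117560228) nearer to that peak than Cpm. The remaining 3 lay deep inside the gene. Their scores were 90 in intron 2 at 29257 bp from the TSS, and 94 and 102 in intron 3 at 33473 and 34684 bp.

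In the list labelled replicate 3, 1 Cpm peak ran from 117662700 to 117662883 in intron 3, in an MTD repeat, at 33291 bp from the TSS. It scored 189 and ranked 21 of 105 in its list. The peak of replicate 1 from 117662894 to 117663053, with score 94 and rank 135 of 213, began after a gap of 10 bases, so the lists placed neighbouring but not overlapping peaks in this intron. The other peak of that list, from 117589838 to 117590022, scored 103 (rank 58 of 105) and lay 39570 bp upstream of the TSS in an LTR106 repeat. The nearest peak of another list was 27734 bases away, at the far upstream peak of replicate 1. RefSeq places the pseudogene Gm9004 (117588117 to 117588872) nearer to the peak from 117589838 than Cpm. The start region of Cpm is shown because the promoter-near peak of this gene begins 142 bases past it, 5′ to 3′ on the plus strand of GRCm38.p6, chr10:117629250-117629499, with GGGCGG or its reverse complement in capitals.
Cpm: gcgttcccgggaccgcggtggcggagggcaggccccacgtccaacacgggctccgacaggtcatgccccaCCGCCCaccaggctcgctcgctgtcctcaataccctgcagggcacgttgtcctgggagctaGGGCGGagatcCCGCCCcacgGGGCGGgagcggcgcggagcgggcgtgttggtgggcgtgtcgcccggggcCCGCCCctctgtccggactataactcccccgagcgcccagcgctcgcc
It held 30 CpG dinucleotides, 74.4% G or C and 5 matches to GGGCGG, the highest values of the 5 genes. Its GC content was above that of 95.4% of the promoters in the table.

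The nearest TSS drew the border between Cpm and Mdm2 through the body of Cpm. The last peak given to Cpm, in intron 3 from 117664108 to 117664260, was 34.7 kb from the TSS of Cpm and 46.6 kb from that of Mdm2. The next 2 peaks of replicate 1, from 117676856 to 117676997 (score 122) and from 117677664 to 117677871 (score 70), lay in intron 7 of Cpm and were 33.8 and 33.0 kb from the TSS of Mdm2 against 47.4 and 48.3 kb from that of Cpm. HOMER counted both for Mdm2. Of the 7 peaks given to Cpm, 5 lay inside the gene and 2 upstream of it. With these 2 peaks of intron 7 the gene body held 7 over both lists. That count includes the peak from 117662700 to 117662883 of the list labelled replicate 3, and the others were of replicate 1. Of the 9 peaks of replicate 1 at the 5 genes that lay in a transcript, 8 had that transcript's gene as nearest gene, and over all peaks of replicate 1 in a transcript this share was 78.8%.

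Peaks centred within 1000 bp of a TSS were taken as promoter-near. There were 4, all in replicate 1: 2 at Lyz2, 1 at Cpm and 1 at Slc35e3. This was 4 of 13 peaks of replicate 1, against 33.0% of all peaks of that list with a TSS distance, so the share at the 5 genes was near that of the list. Neither of the 2 Cpm peaks in the list labelled replicate 3 was promoter-near, a position that 6.38% of that list had. The other 11 peaks comprised 5 inside the gene they were assigned to, 1 inside Nup107 and 5 between genes. The closest to the limit were the Lyz2 peak at 956 bp, just inside, and the Cpsf6 peak at 1466 bp, just outside.

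The promoter-near peaks of replicate 1 had scores of 179 (Slc35e3), 152 and 132 (Lyz2) and 69 (Cpm), with a median of 142. The 9 other peaks of the 5 genes in that list had scores from 76 to 150 with a median of 102. The medians thus differed by 40, but the scores overlapped, and the Cpm promoter peak was below all 9. Over all other peaks of replicate 1 the order of the medians was the other way. The other 63 promoter-near peaks of replicate 1 had a median score of 79 (52 to 318), and the 127 others with a TSS distance had a median of 136. Without peaks in satellite, rRNA, mitochondrial or unplaced DNA the medians were 77 for 59 promoter-near peaks and 110 for 83 others. The neighbour Mdm2, which is among these other peaks, had the same order as the 5 genes. Its peak of replicate 1 centred 315 bp from the TSS scored 237, and its peaks farther away scored 122, 70, 92 and 103. The peaks of Nup107 in replicate 1 all lay beyond 1000 bp. A higher score near the TSS was thus not particular to the 5 genes on this stretch. With 4 peaks at 3 genes on 1 stretch, the difference between the 5 genes and the rest of the list was not tested.

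**Figure D3:**
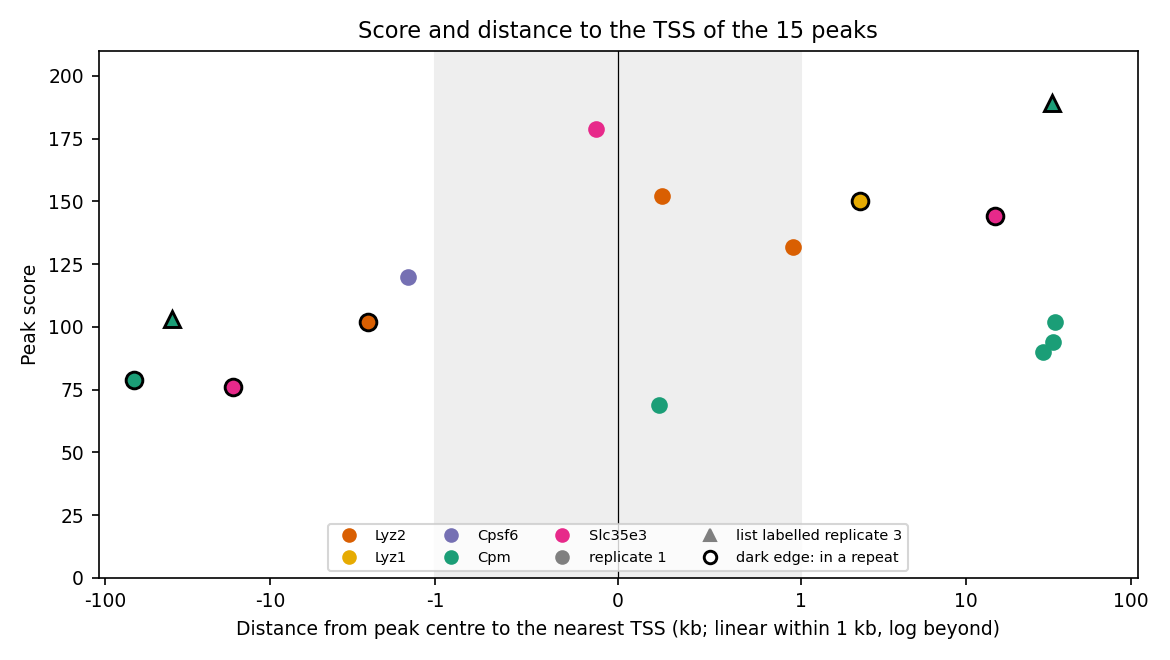
Peak score (vertical axis) against the distance from the peak centre to the nearest TSS in kb (horizontal axis, linear within 1 kb and logarithmic beyond) for the 15 peaks, coloured by gene. Circles are replicate 1, triangles the list labelled replicate 3, dark edges mark peaks in a repeat and the grey band marks 1000 bp on either side of the TSS; 4 circles without dark edges lie in the band, and heights compare only within a list.

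**Figure D4:**
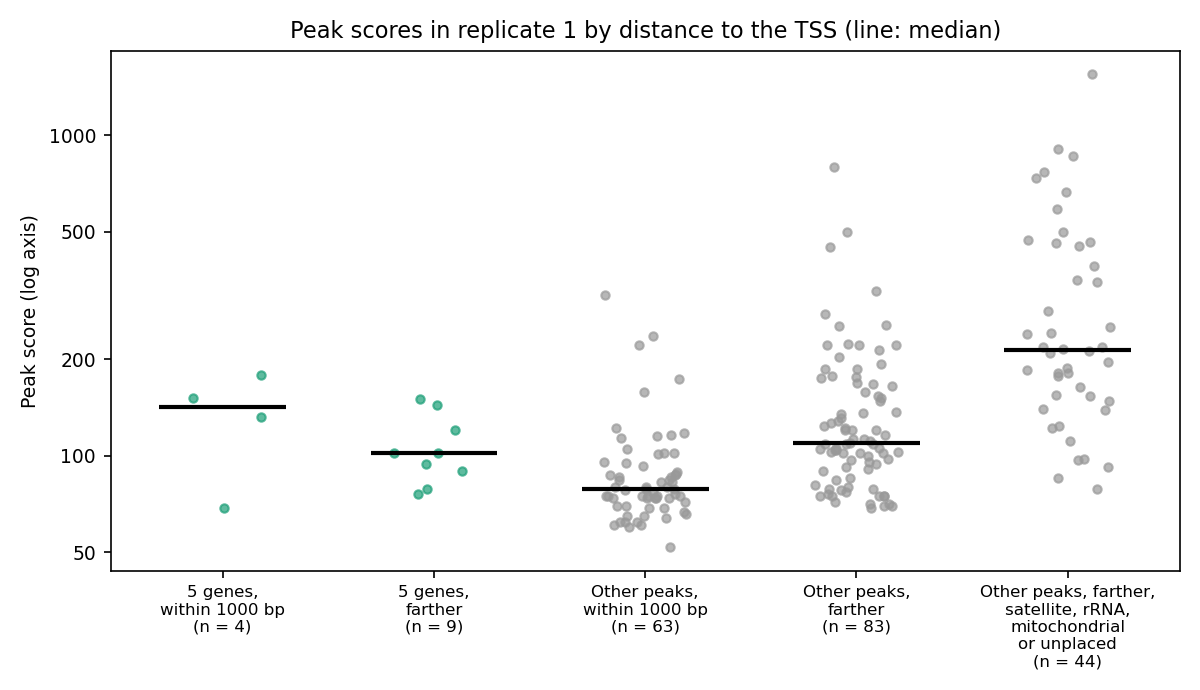
Scores of the peaks of replicate 1 with a TSS distance (vertical log axis), for the 5 genes (green) and all other peaks (grey), by distance to the TSS, with medians as lines. The medians were 142 within 1000 bp and 102 farther away for the 5 genes, against 79 and 136 for all other peaks. The farther ones of the other peaks are drawn in separate columns outside and inside satellite, rRNA, mitochondrial and unplaced DNA. The column outside such DNA has a median of 110, and the 136 for both columns together has no line.

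Named repeats held 7 of the 15 peaks. The repeats were SINEs at Lyz1 and Slc35e3, LTR elements at Cpm and RMER1B at Lyz2. In replicate 1 this was 5 of 13 peaks, against 39.4% of the whole list. By position, repeats held 0 of the 4 promoter-near peaks and 5 of the 9 others, against 0 of 67 and 79 of 136 over the whole list. The annotation gives 1 label per peak, and the promoter-near peaks of Slc35e3 and Cpm carry the labels promoter-TSS and 5′ UTR instead. The counts of 0 near a TSS thus depend on the labelling, and nothing is read from them. Both Cpm peaks in the list labelled replicate 3 were in LTR repeats, and named repeats held 44.8% of that list. The share in replicate 1 was thus close to that of its list, also among all peaks farther than 1000 bp from a TSS. Part of those lay in satellite, rRNA, mitochondrial or unplaced DNA, which held none of the peaks at the 5 genes. Outside such DNA, repeats held a lower share of the other peaks farther away, 37 of 83. This difference was not tested.

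None of the 15 peaks overlapped a peak of another list by 1 bp or more. Of all peaks of replicate 1, 26.8% overlapped a peak of another list, and for the list labelled replicate 3 this was 40.0%. The share in replicate 1 depended on position and on the kind of DNA. Of its 67 promoter-near peaks, 4 overlapped a peak of another list. None of its 13 peaks at the 5 genes lay in satellite, rRNA, mitochondrial or unplaced DNA. Outside such DNA, 3 of 59 other promoter-near peaks and 16 of 83 other peaks farther away overlapped. For the 12 peaks of replicate 1 other than the intron 3 peak of Cpm from 117662894, the distance to the nearest peak of another list ran from 1224 bp, for the neighbouring peak in that intron, to 148387 bp, at Lyz2. The 4 promoter-near peaks were at least 29491 bp from any peak of another list. No peak at Lyz2, Lyz1, Cpsf6, Cpm or Slc35e3 was therefore found at the same position in 2 samples. The depth of the samples is unknown, and replicate 2 had 55 peaks in all, so whether peaks missing there were absent or not detected cannot be told apart.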

How the data were processed

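Par-4 ChIP-Seq was measured in 3 samples of untreated 3T3-L1 cells, grouped as 1 condition from their titles. The authors sequenced 50-bp single reads, mapped them with Bowtie2, called peaks with MACS2 and annotated them with HOMER, with mm10 as the build in the submitters' notes and file headers. Their versions, the peak threshold and any control were not given in the sources read here. The deposited peak score is a whole number, in MACS2 output −log10 of the p-value or the q-value multiplied by 10. Positions and distances to the TSS were used as deposited, per the file headers. Read counts are not in the files used here, and the sequencing depth is thus unknown.

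Overlap needed 1 bp and promoter-near meant a centre within 1000 bp of the TSS. Gene positions, strands and promoter sequences came from RefSeq tables of GRCm38.p6, the assembly of mm10, in which all 5 genes were matched by symbol. The transcription start that HOMER's distances imply was within 1 bp of the RefSeq gene end or start for 14 of the 15 peaks. The motifs spelled out in the text were searched on both strands of 250 upstream bases. The lysozyme windows were aligned globally (match 1, mismatch -1, gap opening -5, gap extension -0.5). All peaks of the 5 genes were named, with Mdm2 and Nup107 as landmarks. The members and lists were chosen with earlier results of these data known, and no test was run on them. The interval and motif functions were tested on planted examples. Alternatives covered gene assignment, distance, label, overlap, score, joined peaks and each replicate left out. Biopython 1.88 made the alignment, with scipy 1.17.1, pandas 2.3.3, numpy 2.4.6 and matplotlib 3.10.9 under Python 3.11.15 for the rest.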

Additional observations from a re-analysis of the deposited data

How the results depend on the processing

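Of 24 alternative values, 18 stayed close to the reported value and 6 did not. Close meant within 1.5 times a count, or within 1 SD of the 13 scores of replicate 1 (34.4) for the difference of medians. Several of the 18 were fixed in advance. A stricter overlap, a score limit or a list left out cannot raise a count of 0 overlapping peaks. Leaving out replicate 2, which held none of the 15 peaks, could not change their count or that of the 4 promoter-near peaks. Nor could leaving out the list labelled replicate 3 change the latter. The 18 therefore do not measure how stable the counts are. The 15 peaks became 7 with a centre within 10 kb of the TSS, which by construction left out 6 of the 7 Cpm peaks and 2 of the 3 of Slc35e3, and also 7 when scores below the list's median were left out. With a replicate left out they numbered 2 to 15, with 2 without replicate 1 and 13 without replicate 3. The 4 promoter-near peaks became 1 by the HOMER label promoter-TSS, the peak of Slc35e3, and numbered 0 to 4 with a replicate left out, with 0 without replicate 1. The count of 0 peaks that overlapped another list became 2 when gaps of up to 1000 bp counted as overlap, the neighbouring Cpm intron 3 peaks of replicate 1 and the list labelled replicate 3. The difference of 40 between the medians of promoter-near and other peaks was 47 with a limit of 2500 bp, 50 with 500 bp and 48 against peaks within genes. These settings reused the same peaks, and the SD of single scores was a wide limit beside a difference of 40. Staying within it therefore says little. No paired analysis was possible because there is a single group and no test. With no read counts and no control library used here, depth could not be measured, and the counts rest mainly on replicate 1.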

Other observations

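Of 56 relatives of the 5 genes in the lysozyme, carboxypeptidase, mRNA cleavage and Slc35 families, 0 had a peak in any list. Among all 21896 protein-coding genes in RefSeq, 0.909% had a peak, and nothing particular to these families is read from it. These counts took the nearest gene or the gene of the transcript in which a peak lay.

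Other letters searched in the 250 bases before the 5 gene starts gave few matches. TATAAA, the TATA box, found in 12.4% of all promoters of the table, and GAGGAA, an ETS core, found in 23.3%, matched none of the 5. CCAAT, the site of the factor NF-Y, found in 33.8%, matched 1 time in Lyz1 alone. GTGGGNG, part of the sites known for WT1 and EGR factors and found in 28.1%, matched 2 times in Cpm and 1 time in Cpsf6, and 1 match in either gene overlapped a match to GGGCGG. A match describes letters only, and none of the Cpm or Cpsf6 matches lay in a peak.

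Between Cpsf6 and Cpm, the peak of replicate 1 from 117429665 to 117429992 (score 78) overlapped the peak of replicate 2 from 117429790 to 117429924 (score 78). HOMER annotated both as lying between genes, nearest to Gm32141, while RefSeq places the pseudogene Gm9002 from 117429618 to 117430116 over both. This position was chosen after its values were seen.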
